A study of Mus musculus with 6 samples.

Results

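The Id proteins and the E proteins are the regulators of the basic helix-loop-helix (bHLH) system in which the muscle factors MyoD and myogenin work. Their genes were taken as the rows of the expression table whose platform gene symbol was exactly Id1, Id2, Id3, Id4, Tcf3, Tcf4 or Tcf12. All 7 genes were found, each with 1 probe set, among 22180 genes with a probe set of their own and 41345 rows in all. Total RNA of 6 mouse samples was hybridised to microarrays, with 3 arrays of pluripotent embryonic stem (ES) cells kept undifferentiated and 3 arrays of Pax7-GFP cells. The Pax7-GFP cells came from mouse ES cells carrying a green fluorescent reporter of Pax7, a transcription factor of muscle progenitors. They were differentiated toward skeletal muscle for 3 weeks and sorted on GFP fluorescence, with gates set on undifferentiated cultures. The labels name no strain, clone or reporter construct, and they do not say whether the ES samples were sorted or carried the reporter. The titles call the replicates biological without naming separate cultures, so a p-value here reflects only how far these 6 samples spread.

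A bHLH protein binds the DNA motif CANNTG, called an E box, as a dimer. The tissue-specific members, among them the 4 muscle factors Myf5, MyoD, myogenin and Myf6, bind DNA as heterodimers with an E protein, which is made in most tissues. Tcf3 encodes the E protein E2A, Tcf4 encodes E2-2 and Tcf12 encodes HEB. The Id proteins carry the dimerization region and lack the DNA-binding one, so an E protein held by an Id protein cannot bind an E box. Id genes are known targets of bone morphogenetic protein (BMP) signalling, are high in many proliferating progenitors, and hold back muscle differentiation when overexpressed. The symbols Tcf3 and Tcf4 have also been used for the unrelated Wnt effectors Tcf7l1 and Tcf7l2, which have rows of their own in the table.

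The promoters of 1 gene that rose and 1 that did not are shown from each family, because the proteins of these genes act at E boxes. RefSeq promoters (GRCm38.p6) were matched for 5 of the 7 genes. The 250 bases before the start are printed 5′ to 3′ on the gene's strand, with every CANNTG in capitals. Id2 (chr12:25096093-25096342, minus strand) and Tcf12 (chr9:72111820-72112069, minus strand) are the genes that rose. Id4 (chr13:48260866-48261115, plus strand) and Tcf3 (chr10:80433636-80433885, minus strand) are those that did not.
Id2: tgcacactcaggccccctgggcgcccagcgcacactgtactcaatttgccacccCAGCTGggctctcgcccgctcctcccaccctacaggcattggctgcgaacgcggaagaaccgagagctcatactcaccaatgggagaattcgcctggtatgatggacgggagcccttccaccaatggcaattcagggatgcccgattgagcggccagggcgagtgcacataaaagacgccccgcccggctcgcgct
Id4: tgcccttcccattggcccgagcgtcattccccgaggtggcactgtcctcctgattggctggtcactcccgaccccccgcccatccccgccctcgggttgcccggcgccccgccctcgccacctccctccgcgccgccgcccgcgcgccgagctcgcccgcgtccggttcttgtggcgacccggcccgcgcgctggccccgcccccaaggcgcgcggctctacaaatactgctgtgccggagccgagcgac
Tcf12: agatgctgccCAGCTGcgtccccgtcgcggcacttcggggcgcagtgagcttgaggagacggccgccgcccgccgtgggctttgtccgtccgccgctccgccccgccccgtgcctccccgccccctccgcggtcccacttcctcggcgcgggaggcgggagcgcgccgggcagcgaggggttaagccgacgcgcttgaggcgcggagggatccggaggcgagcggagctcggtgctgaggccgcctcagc
Tcf3: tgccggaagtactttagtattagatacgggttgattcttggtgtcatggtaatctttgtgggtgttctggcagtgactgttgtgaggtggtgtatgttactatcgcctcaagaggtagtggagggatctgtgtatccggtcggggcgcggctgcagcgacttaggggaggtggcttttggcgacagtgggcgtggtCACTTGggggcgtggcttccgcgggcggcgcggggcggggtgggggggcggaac
The Id2 window held 1 E box, CAGCTG, with its first base 196 bases before the start, and the Tcf12 window held the same motif 240 bases before it. The Id3 window, from another gene that rose, held no E box and is not printed. Of the other 2 Tcf12 starts, 1 had an E box of another form and 1 had none. In the Tcf3 window the only E box began 54 bases before the start, and the Id4 window held none. An E box reads as one on either strand and stood in 66.2% of 32851 RefSeq promoter windows of this length. The form shared by Id2 and Tcf12, which the count of all E boxes includes, stood in 13.0% of them. The GC-rich motif GGCGCC, which Smad proteins bind in some BMP target genes and which is also its own reverse complement, began 231 bases before the Id2 start and 148 bases before the Id4 start. The Id3, Tcf3 and Tcf12 windows did not hold it, and it was present in 9.59% of all windows. These matches describe the letters of the windows, and binding was not measured. Tcf12 had 3 annotated starts, of which the one farthest upstream is shown. A single probe set value per gene does not tell which start was used.

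In Pax7-GFP cells 5 of the 7 genes were higher and 0 lower, while 2 were not called. Id1, Id2 and Id3 rose among the inhibitors, and Tcf4 and Tcf12 rose among the E proteins, by 2.79-fold to 5.48-fold. Id4 and Tcf3 stayed within 2-fold. Calls required an adjusted p under 0.05 (limma, Benjamini-Hochberg over all 22180 genes) together with at least a 2-fold difference. By this rule 14.5% of all genes were called, 7.34% higher and 7.15% lower. By the p threshold alone 6 of the 7 genes passed, against 41.1% of all genes. The groups did not overlap for 6 of the 7, against 51.9% of all genes. At least 4-fold differences were called for 3 of the 7 genes, Tcf4, Id2 and Tcf12, against 4.55% of all genes. Each array measured the RNA of many cells together, so fewer cells of a type and less RNA per cell cannot be told apart. All levels are RMA signals on the log2 scale, which compress the differences of dim genes, and a level of one gene is not set against that of another.

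**Figure D1:**
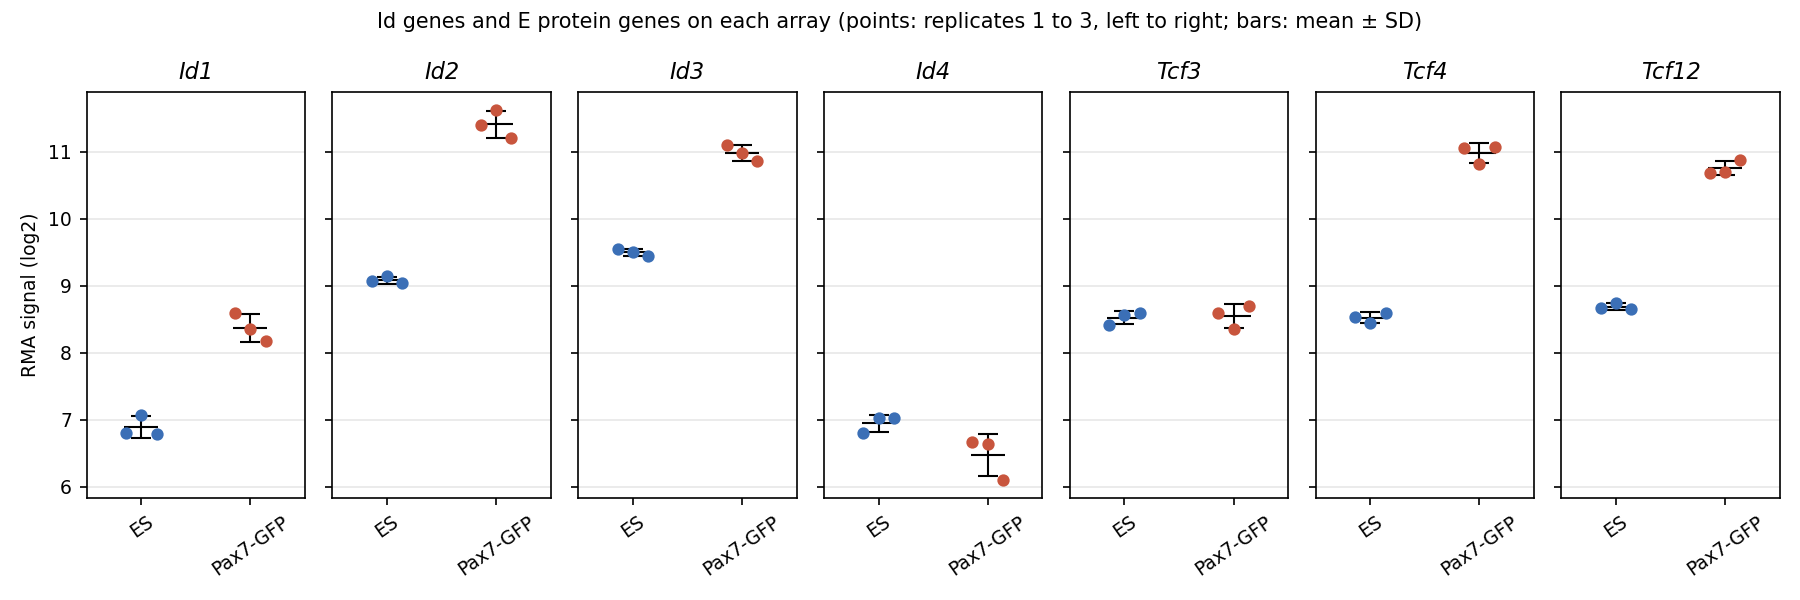
RMA signal (log2) of the 7 genes on each array, with ES arrays in blue and Pax7-GFP arrays in red; points are replicates 1 to 3 from left to right and bars give the mean ± SD of 3 arrays. The groups stand apart for Id1, Id2, Id3, Tcf4 and Tcf12, are separated by a gap of 0.13 for Id4, and overlap for Tcf3.

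Among the inhibitors, Id2, which is expressed in progenitors of many tissues, changed most. Its signal was 9.07, 9.14 and 9.04 on the 3 ES arrays and 11.40, 11.61 and 11.21 on the 3 Pax7-GFP arrays. The groups were separated by 2.07, while the Pax7-GFP arrays ranged over 0.41 among themselves. The means were 9.08 ± 0.053 and 11.41 ± 0.20 (SD, n = 3 each), which is a rise of 2.33 on the log2 scale (SE 0.11, 5.02-fold, adjusted p = 1.14e-06 by limma). This change was larger in size than that of 96.8% of genes.

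Id3, which is a rapid target of BMP and growth factor signals, was already well above the array medians of 5.61 to 5.69 in ES cells. It measured 9.55, 9.50 and 9.45 on the ES arrays and 11.09, 10.98 and 10.87 on the Pax7-GFP arrays. All Pax7-GFP arrays lay above all ES arrays, by at least 1.31. The means of 9.50 ± 0.052 and 10.98 ± 0.11 (SD, n = 3 each) differed by 1.48 on the log2 scale (SE 0.089, 2.79-fold, limma, adjusted p = 4.10e-06).

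Id1, the inhibitor most often used as a readout of BMP signalling, rose by about the same amount as Id3. It read 6.81, 7.08 and 6.79 in ES cells and 8.59, 8.35 and 8.18 in Pax7-GFP cells. The gap between the groups was 1.10, and the arrays within each group spread by 0.29 and 0.41. The means were 6.89 ± 0.16 and 8.37 ± 0.21 (SD, n = 3 each), so Id1 rose by 1.48 on the log2 scale (SE 0.13, adjusted p = 3.57e-05 by limma).

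Id4, an inhibitor best known from neural progenitors and the germ line, did not rise with the others. Its ES signals were 6.81, 7.02 and 7.03, and its Pax7-GFP signals were 6.68, 6.64 and 6.11. The Pax7-GFP arrays were lower by a gap of only 0.13, and replicate 3 lay well below replicates 1 and 2. The means were 6.95 ± 0.13 and 6.48 ± 0.32 (SD, n = 3 each), and their difference was -0.48 on the log2 scale (95% interval -0.84 to -0.12). This passed the p threshold (limma, adjusted p = 0.0401) but not the 2-fold minimum. The p threshold was not passed without Pax7-GFP replicate 3, where the difference was -0.29 (limma, adjusted p = 0.0629), nor without ES replicate 1, 2 or 3 (limma, adjusted p = 0.0553, 0.129 and 0.127). It was passed without Pax7-GFP replicate 1 or 2 (limma, adjusted p = 0.0162 and 0.0347). With the replicate number as a block the limma adjusted p was 0.0536, and with a signal floor it was 0.119. With array weights, median centring, quantile normalization, a filter on dim genes or another variance prior, the limma adjusted p lay between 0.00725 and 0.0395.

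Among the E proteins, Tcf4 had the largest change of the 7 genes. It read 8.54, 8.44 and 8.60 on the ES arrays and 11.06, 10.81 and 11.07 on the Pax7-GFP arrays. The lowest Pax7-GFP array stood 2.22 above the highest ES array. The means were 8.52 ± 0.078 and 10.98 ± 0.15 (SD, n = 3 each), which is a rise of 2.46 on the log2 scale (SE 0.099, 5.48-fold, adjusted p = 4.50e-07 by limma).

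Tcf12, whose product HEB is a partner of MyoD in muscle cells, rose nearly as far. Its signals were 8.67, 8.74 and 8.65 in ES cells and 10.68, 10.70 and 10.87 in Pax7-GFP cells. Its arrays were the tightest of the 7 genes, with ranges of 0.092 and 0.19 within the groups and a gap of 1.94 between them. The means of 8.69 ± 0.049 and 10.75 ± 0.11 (SD, n = 3 each) differed by 2.06 on the log2 scale (SE 0.087, 4.18-fold, limma, adjusted p = 5.65e-07).

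Tcf3, whose product E2A is the classical partner of MyoD in cell culture, had about the same signal in both groups. It measured 8.42, 8.57 and 8.59 in ES cells and 8.60, 8.35 and 8.69 in Pax7-GFP cells, so the groups overlapped. The means were 8.53 ± 0.097 and 8.55 ± 0.17 (SD, n = 3 each). The log2 fold change was 0.023, with a 95% interval from -0.23 to 0.27 (limma, adjusted p = 0.902). That interval leaves out a 2-fold difference in either direction, and leaving out single arrays gave values from -0.049 to 0.12. Alternative splicing of Tcf3 gives products that differ in their bHLH exon, and 1 probe set value does not separate them.

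**Figure D2:**
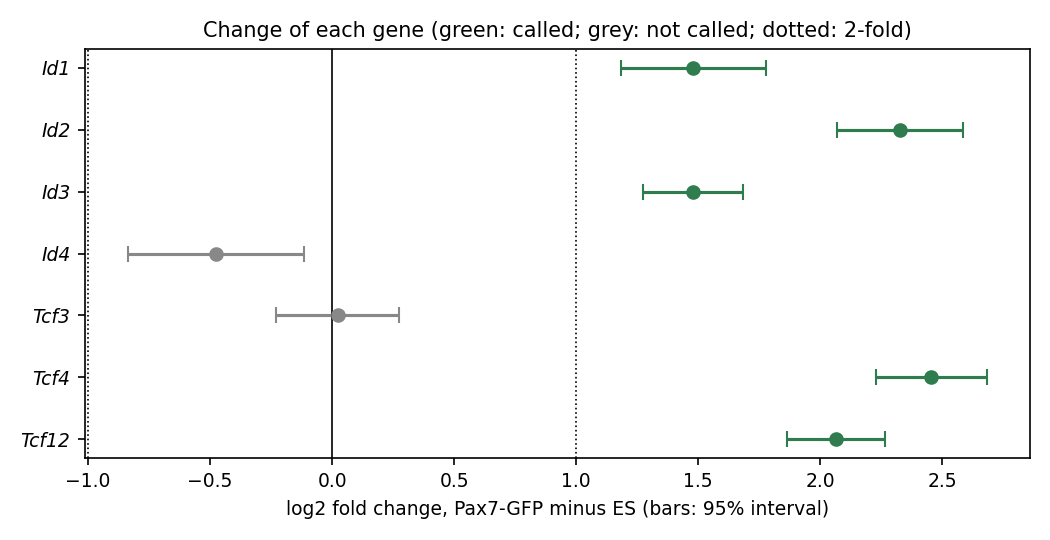
Log2 fold change of each gene, Pax7-GFP minus ES, with its 95% interval from limma on 3 arrays a group; green genes passed an adjusted p of 0.05 and the 2-fold minimum (dotted lines), grey genes did not. The intervals of Id1, Id2, Id3, Tcf4 and Tcf12 lie above the 2-fold line, from 1.18 for Id1 to 2.68 for Tcf4, while that of Tcf3 spans 0.

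The genes of one family did not all change by the same amount. The difference between 2 genes was taken on each array for the 9 pairs within the families, and compared between groups by an exact permutation test (two-sided). With 3 arrays against 3 this exact test cannot give a p below 0.1, and 8 of the 9 pairs reached it (exact permutation, adjusted over the pairs, p = 0.113). Id2 rose by 0.85 more than Id3 and by 0.85 more than Id1, with no overlap of the paired differences between the groups. Id1 and Id3 had changes within 0.0003 of each other, and their paired differences overlapped (exact permutation p = 1). Tcf4 exceeded Tcf12 by 0.39, with paired differences from -0.30 to -0.055 in ES cells and from 0.11 to 0.38 in Pax7-GFP cells. The change of Tcf3 was smaller than that of Tcf4 by 2.43 and smaller than that of Tcf12 by 2.04.

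Within the Pax7-GFP group the inhibitors and the E proteins had opposite extremes in 1 array. All 4 Id genes had their lowest Pax7-GFP signal in replicate 3, at 0.11 to 0.37 below the group mean. Tcf3, Tcf4 and Tcf12 had their highest signal in that array, 0.089 to 0.14 above the mean, although Tcf4 was highest in replicate 1 after the arrays were centred on their medians. Over all genes, 29.6% had their lowest Pax7-GFP signal in replicate 3 and 29.7% their highest. Replicate 3 also had the highest mean log2 signal over 8 genes of differentiated muscle, 9.46 against 9.25 and 8.77 in replicates 1 and 2. Myog, which drives terminal differentiation, stood at 11.68 there against 11.23 and 11.20. Of the same 8 genes, Acta1, Actc1, Mymk and Ttn were also highest in replicate 3. Myh3, Myh8 and Tnnt3 were highest in replicate 1 instead, at 7.40, 8.28 and 8.56 against 7.30, 7.64 and 8.41 in replicate 3. This arrangement was noticed after the values were seen and was not tested.

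**Figure D3:**
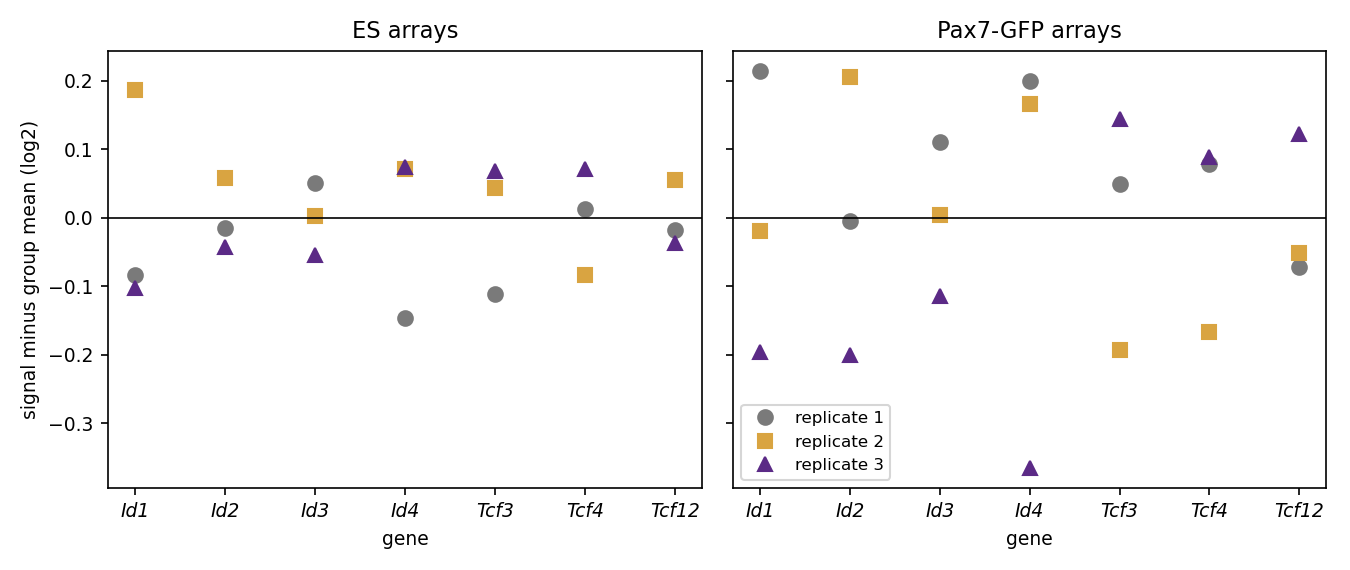
Deviation of each gene from its group mean on every array (log2), for ES arrays on the left and Pax7-GFP arrays on the right; each symbol is 1 replicate. In the Pax7-GFP panel the triangles of replicate 3 lie lowest for Id1 to Id4, down to -0.37 for Id4, and highest for Tcf3, Tcf4 and Tcf12.

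Among the tissue-specific bHLH genes whose products pair with E proteins, the 4 muscle factors rose most. The list had 44 measured genes, 8 of them higher and 1 lower, and 9 of the 35 genes without a call passed on p only. The share called was 20.5%, against 14.5% of all genes. Over all genes, 5914 of the 18968 without a call passed on p only. The median change of the list on the log2 scale was 0.053 against 0.024 over all genes. Myf5, a determination factor, read 5.67, 5.60 and 5.84 in ES cells and 11.00, 10.75 and 10.84 in Pax7-GFP cells. Myod1, another determination factor, read 6.30, 5.58 and 6.07 against 11.15, 11.13 and 10.95. Myf6, a late muscle factor also called MRF4, read 5.48, 5.53 and 5.53 against 10.25, 9.61 and 9.51. With Myog at 4.85, the 4 muscle factors changed by 4.28 to 5.16 on the log2 scale (limma, adjusted p between 1.87e-08 and 5.43e-07), more than any of the E proteins or inhibitors.

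The other 4 rises, named after their values were seen, were Scx, the tendon factor scleraxis, by 1.84 (SE 0.12), Atoh8, by 1.40 (SE 0.14), Twist1, a mesodermal repressor of MyoD, by 1.11 (SE 0.096), and Msc, a bHLH repressor of head muscle and activated B cells, by 1.08 (SE 0.17). The limma adjusted p-values of these 4 lay between 7.46e-06 and 0.000981. Msc fell short of the 2-fold minimum without Pax7-GFP replicate 1, at 0.88. Olig2, a factor of motor neurons and oligodendrocytes, was the lower gene, at 7.46, 7.62 and 7.34 in ES cells and 5.09, 5.01 and 5.05 in Pax7-GFP cells (log2 fold change -2.42, limma, adjusted p = 3.56e-07). The neural factors Neurog2 and Neurod1, also named after their values were seen, stood at 0.11 and 0.094 and were not called.

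Genes listed as targets of MyoD and E proteins were higher as a rule. Among 20 measured genes, 17 were higher and 0 lower, and 2 of the 3 genes without a call passed on p only. The share called was 85.0%, against 14.5% of all genes. The median change of the list on the log2 scale was 3.01 against 0.024 over all genes. Actc1, the cardiac actin also used by embryonic muscle, rose by 5.97 (SE 0.16), and Des, the muscle intermediate filament desmin, rose by 4.46 (SE 0.096). The other 3 genes, picked out after their values were seen, were Cdkn1a, the cell cycle inhibitor p21, at 0.57, Lbx1, a factor of migrating limb muscle precursors, at 0.38, and Ckm, a creatine kinase of muscle fibres, at 0.084. Myog and Myf6 stand in this list and in that of the tissue-specific factors. Acta1, Actc1, Mymk and Myog are also among the differentiated muscle markers, and Cdh15 among the progenitor genes, so those counts are not separate. This list, like the others, was chosen with earlier results of these data known.

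Zinc finger repressors that compete for E boxes also rose in part. Among 6 measured genes, 2 were higher and 0 lower, and 1 of the 4 genes without a call passed on p only. The share called was 33.3%, against 14.5% of all genes. Their median change was 0.55 on the log2 scale. Snai2, which is present in muscle progenitors and holds MyoD off some E boxes, read 8.51, 8.57 and 8.54 in ES cells and 11.41, 10.90 and 10.99 in Pax7-GFP cells, and so rose by 2.56 on the log2 scale (SE 0.13, adjusted p = 1.85e-06 by limma). Zeb1, a repressor of epithelial and muscle genes, rose by 2.22 (SE 0.097, limma, adjusted p = 6.76e-07). Snai1, named after its values were seen, stood at 0.96, short of the 2-fold minimum.

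Cofactors of E proteins and enzymes that act on Id proteins were mostly not called. Among 15 measured genes, 1 was higher and 1 lower, and 7 of the 13 genes without a call passed on p only. The median change of the list on the log2 scale was -0.084. Lmo4, a LIM-only adaptor, rose by 1.67 (SE 0.11, limma, adjusted p = 8.75e-06). Kat2b, the acetyltransferase PCAF that acts with MyoD, fell by 1.42 on the log2 scale (SE 0.16, limma, adjusted p = 0.000132). The share called, 13.3%, was near the 14.5% of all genes. Usp1, which removes ubiquitin from Id proteins and so stabilises them, named after its values were seen, stood at -0.34.

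BMP signalling genes, which act upstream of the Id genes, changed in both directions. The list had 40 measured genes, 12 of them higher and 3 lower, and 16 of the 25 genes without a call passed on p only. The share called was 37.5%, against 14.5% of all genes. The median change of the list on the log2 scale was 0.64. The largest rises were those of the type I receptor Bmpr1b, by 3.27 (SE 0.12), the co-receptor Rgmb, by 2.80 (SE 0.14), and the secreted antagonist Sostdc1, by 2.63 (SE 0.30), with limma adjusted p-values between 2.39e-07 and 0.000158. Bmpr1b read 3.92, 4.29 and 3.97 in ES cells and 7.22, 7.32 and 7.44 in Pax7-GFP cells. Endoglin, the co-receptor encoded by Eng, fell by 2.79 on the log2 scale (SE 0.12, limma, adjusted p = 6.61e-07).

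The ligand gene Bmp4 was lower in Pax7-GFP cells but uneven among them. It read 9.35, 9.49 and 9.54 in ES cells and 8.85, 7.41 and 7.10 in Pax7-GFP cells, and so stood at -1.67 on the log2 scale (SE 0.39, adjusted p = 0.00829 by limma). Its highest Pax7-GFP array was replicate 1, which was also the highest array for Id1, Id3 and Id4, whereas Id2 was highest in replicate 2. After quantile normalization Id4 was highest in replicate 2 as well. Over all genes, 33.8% had their highest Pax7-GFP signal in replicate 1. This order of the arrays was noticed after the values were seen, and a link between Bmp4 and the Id genes was not tested. Among the Smad proteins that carry the BMP signal, Smad5 rose by 1.58 (SE 0.096, limma, adjusted p = 4.47e-06), while Smad1 and Smad4, at 0.68 and 0.70, passed the p threshold alone. These 3 Smad genes were named after their values were seen.

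Other genes listed as responding to BMP moved in both directions. The list had 13 measured genes, 3 of them higher and 2 lower, and 4 of the 8 genes without a call passed on p only. The share called was 38.5%, against 14.5% of all genes. The median change of the list on the log2 scale was 0.047. The higher ones were Hey1, which is also a Notch target, by 4.64 (SE 0.12), Spry1, a feedback inhibitor of growth factor receptors, by 2.42 (SE 0.11), and Atoh8. The lower ones were Tbx20, a heart factor, at -2.17 and Smad7, an inhibitory Smad, at -1.51 (limma, adjusted p = 7.93e-06 and 1.22e-05). Smad6, the inhibitory Smad of the BMP branch, read 6.83, 6.84 and 6.94 in ES cells and 7.99, 8.15 and 7.47 in Pax7-GFP cells. Its log2 fold change of 0.9998 (SE 0.16, adjusted p = 0.00129 by limma) was just short of the 2-fold minimum, and it was called at 1.20 without Pax7-GFP replicate 3 and also without ES replicate 3. Msx2, a homeobox target of BMP, stood at -0.66. Smad6, Smad7 and Bambi stand in both BMP lists, and Atoh8 also stands among the tissue-specific factors.

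**Figure D4:**
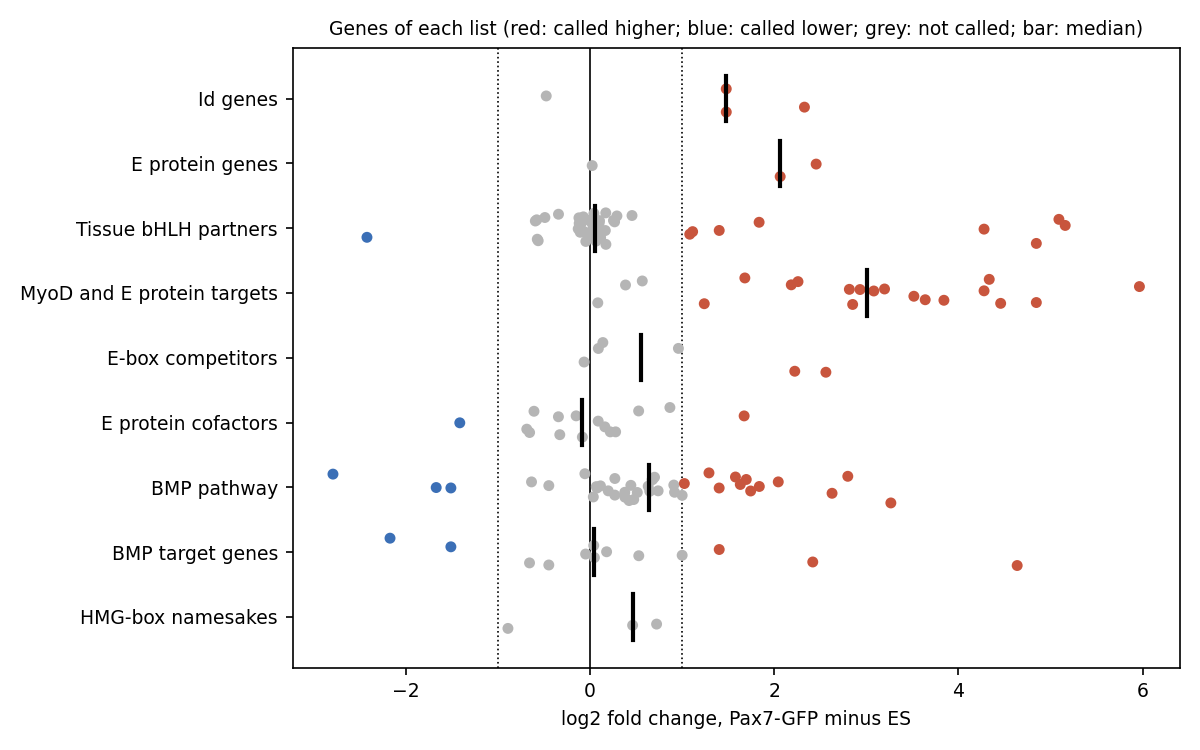
Log2 fold change, Pax7-GFP minus ES, of every measured gene of the 9 lists; red and blue points were called higher and lower, grey points were not called, dotted lines mark 2-fold and black bars the list medians. The medians run from -0.084 for the cofactors to 3.01 for the MyoD and E protein targets, and 35 of the 44 tissue bHLH partners are grey, with the muscle factors at 4.28 to 5.16 and Olig2 at -2.42.

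The HMG-box genes that share the older names Tcf3 and Tcf4 followed other patterns. Tcf7l1, a Wnt pathway repressor of ES cells, read 9.88, 9.93 and 10.01 in ES cells and 9.10, 8.85 and 9.20 in Pax7-GFP cells, so that it stood at -0.89 (SE 0.11, adjusted p = 0.000216 by limma). Tcf7l2, a Wnt effector also known from connective tissue of muscle, stood at 0.72 (SE 0.15, limma, adjusted p = 0.00518), and Lef1 at 0.46 (SE 0.24, limma, adjusted p = 0.176). None of these 3 reached 2-fold, 0 were called by limma, and 2 had an unadjusted p under 0.05. Tcf4 at 2.46 and Tcf7l2 at 0.72 are thus separate measurements, as are Tcf3 at 0.023 and Tcf7l1 at -0.89.

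The genes most like each of the 7 were found by the root mean square distance over the 6 arrays, after each gene was centred on its own mean. Closest to Id2 were Mdfic, whose product carries the I-mfa domain of a known inhibitor of muscle bHLH factors, at a distance of 0.088, Spry1 at 0.091, and Mest, an imprinted mesodermal gene, at 0.11. Mdfic read 7.99, 7.90 and 8.03 in ES cells and 10.33, 10.40 and 10.16 in Pax7-GFP cells. Closest to Id1 were Smpd1, a lysosomal sphingomyelinase, at 0.062, Dusp10, a phosphatase of stress kinases, at 0.070, and Ier2, an immediate early gene, at 0.074. Id3 was nearest to Galnt17, Urgcp and Maged1, with distances of 0.041 to 0.051, and Id4 to Rab25, Nans and Plpp3, with distances of 0.084 to 0.085.

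Among the E proteins, Tcf4 was nearest to Gpc1, a glypican, at 0.061, then to Glcci1 and Fndc1 at 0.085 and 0.090. Tcf12 was nearest to Svep1, a matrix protein, at 0.041, to Top2b, a topoisomerase, at 0.047, and to Ppfibp1 at 0.058. Tcf3 was nearest to Igf2r, Wasf2 and Tubg1, at 0.034 to 0.037, all with log2 fold changes between 0.0091 and 0.059. With 2 groups of arrays this likeness mainly ranks genes by the size of their change.

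Other measured features moved with the same comparison, and their part in the changes of the Id and E protein genes was not tested. In the sorted cells 6 of 8 listed progenitor genes were higher and 8 of 8 listed ES markers were lower. Pax7, whose reporter was the basis of the sort, is among the 6. Pax3 and Vcam1, named after their values were seen, stood at 0.89 and 0.98 and passed on p only. For comparison with these marker counts, 14.5% of all genes were called, 7.34% higher and 7.15% lower. Fibroblast markers were higher in 5 of 8, with a mean log2 signal of 6.39 to 6.62 on ES arrays and 8.08 to 8.55 on Pax7-GFP arrays. Differentiated muscle markers were higher in 8 of 8, with means of 5.57 to 5.81 and 8.77 to 9.46. Endothelial markers, from a cell type rich in Id1 and Id3, were higher in 1 of 8 and lower in 1, with means of 5.57 to 5.63 and 5.44 to 5.53. Cdh5 was the higher one, at 1.41, and read 7.49, 6.54 and 6.39 in Pax7-GFP replicates 1 to 3. Pecam1 was the lower one, at -2.43, with an ES mean of 8.40. Both were named after their values were seen. Haematopoietic markers were higher in 0 of 7 and lower in 3, with means of 6.46 to 6.54 and 5.37 to 5.68, and Ptprc, their common surface marker, read 4.64 in both groups.

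The next 3 lists also stand beside 7.34% of all genes higher and 7.15% lower. Neural markers were higher in 2 of 9 and lower in 5, glial and neural crest markers were higher in 0 of 6 and lower in 2, and epithelial markers were higher in 1 of 7 and lower in 2. Their mean log2 signals on Pax7-GFP arrays lay at 5.46 to 5.60, 5.71 to 5.91 and 6.41 to 6.67, below the ES arrays at 7.24 to 7.31, 6.45 to 6.54 and 7.56 to 7.71. The immediate early genes Egr1 and Fos, named after their values were seen, rose by 5.91 and 4.34, and Id genes can respond to the same growth factor signals. Egr1 read 11.77, 11.43 and 11.25 and Fos 9.91, 9.40 and 9.15 in Pax7-GFP replicates 1 to 3, with replicate 1 highest and replicate 3 lowest, as for Id1 and Id3. No detection calls accompany the signals, so none of these markers can be called absent.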

How the data were processed

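The deposited values are RMA signals on the log2 scale, 1 per probe set and array, made by the authors with R 2.12.1 per the submitters' processing notes. A double amplification with biotin labelling preceded hybridisation, per the labels' protocols. How probe sets were defined, which RMA options were set and which genome build applied was not given in the sources used here. Arrays were not rescaled. Of 41345 rows, 23521 carried 1 gene symbol in GEO's platform annotation, 1814 carried several and 16010 were unlisted. Where a gene had several such rows the one with the highest mean was used, giving 22180 genes. Pax7-GFP arrays were compared with ES arrays by a two-sided test without a block (lmFit, then eBayes, limma 3.58.1, R 4.3.3), which was tested on simulated data. Precision is limited by the 6 arrays. Arrays correlated at 0.997 within ES, 0.987 to 0.993 within Pax7-GFP and 0.895 to 0.905 between groups.

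The genes and lists were chosen with earlier results of these data known. Text names the 7 genes, the 4 muscle factors, Smad6, Smad7, Msx2, the HMG-box namesakes, from each list the 3 called genes changed most in its main direction and up to 2 in the other, and the 3 genes most like each of the 7. Genes outside this rule are said to be named after their values were seen. Listed genes without a single-symbol probe set, Msx1 among them, were not analysed here. Alternatives covered the fold threshold, the arrays included, a replicate block, array weights, the variance prior, the choice of probe set, dim genes (floor or filter) and the scaling.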

Additional observations from a re-analysis of the deposited data

How the results depend on the processing

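The 5 called genes of the 7 stayed called in the same direction under all 17 alternatives. Not all of these could have removed a call. Each of the 7 genes had 1 probe set, so other choices of probe set left their values as they were. Dropping the minimum fold could only add calls. The count of called genes was 5 throughout except without a minimum fold, where Id4 at -0.48 was added and the count was 6. Leaving out single arrays gave 1.37 to 1.58 for Id1, 2.23 to 2.43 for Id2, 1.42 to 1.54 for Id3, -0.58 to -0.29 for Id4, -0.049 to 0.12 for Tcf3, 2.41 to 2.54 for Tcf4 and 2.0 to 2.10 for Tcf12. With probe sets as the unit 5 were called, from the same rows, since each of the 7 genes had 1 probe set. Without a minimum fold 9126 genes passed, and in a limma test against 2-fold 1713 did, against 3212 as reported. The pathway lists together held 46 called genes of 135 measured, beside 14.5% of all genes, and 44 to 48 without single arrays. Without a minimum fold they held 85, beside 41.1% of all genes. Deviations of same-numbered arrays from their group means correlated at -0.11, -0.22 and 0.0070, and those of differently numbered arrays at -0.077 to 0.195. With 3 arrays a group these values cannot tell whether the replicate numbers pair the samples. Each replicate number stands in both groups, so a block on it leaves the differences as they were, with Id2 at 2.33. The 5 genes stayed called with this block, and the limma adjusted p of Id2 was 8.57e-06.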
